A study of Caenorhabditis elegans with 21 samples.

Results

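The major sperm protein (msp) genes of Caenorhabditis elegans were examined as every gene of the mRNA table whose name is msp followed by a number, which gave 30 genes of 21035 features with a unique identifier. The same 30 genes were looked up in the small RNA exon table. Current gene names list 31 such genes, and msp-58 was not analysed here. The msp genes encode near-identical copies of a small protein that replaces actin in the crawling of nematode sperm. In developing spermatocytes the protein is packed into fibrous bodies, and in mature sperm its filaments fill the pseudopod. Sperm also shed the protein, and outside the cell it acts as the hormone that triggers oocyte maturation and contraction of the gonadal sheath, in part through the Eph receptor VAB-1.

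The study measured RNA in sorted 1-cell embryos, sperm, oocytes and whole worms grown at 24 C, in 15 mRNA and 6 small RNA libraries. The embryos had CB4856 fathers and mothers labelled fem-1(hc17ts)/TX189(OMA-1::GFP). Their mRNA was poly(A)-selected in 3 libraries and depleted of rRNA (RiboMinus) in 3 others. Sperm mRNA came from fog-2(q71) males, from CB4856 at high purity after pronase, and from CB4856 at low purity, with 1 poly(A) library each. Whole worms were CB4856 or the strain of the mothers, hereafter the maternal strain, with 3 poly(A) libraries each. The 6 small RNA libraries were fog-2(q71) sperm, hybrid embryos, TX189(OMA-1::GFP) embryos, N2 oocytes, CB4856 worms and maternal-strain worms. fem-1 is needed for the male fate of germ cells, and hc17 is a temperature-sensitive allele. fog-2 hermaphrodites make no sperm, so the q71 strain is kept as males and females. The labels of the worm libraries give no sex, so the share of males in CB4856 worms is unknown. The parent of origin of an msp mRNA in the embryo cannot be read from these tables, which are not split by allele.

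The mRNA values are RPKM (reads per kilobase of gene, scaled to the mapped reads of the library), which allow levels to be compared between genes. A gene with no value in a library was taken as 0. In each group with 3 libraries, replicates 1 and 2 differed by 1.90 to 2.02 times the variance of independent reads, and this factor was about the same at low and high read counts (1.85 to 2.07). Replicate 3 differed from replicate 1 by 11.1 to 1116 times that variance. Because the distance between replicates 1 and 2 grew only as counting error does, they were counted as 1 sample, so that each group had 2 samples. Whole reads were recovered from the steps between RPKM values for 98.8% of 17879 features with at least 3 values, and reads of other features are not counted. Recovered reads numbered 80.4 to 105 M in poly(A) embryos, 3.08 to 10.2 M in RiboMinus embryos, 27.1 to 123 M in CB4856 worms and 24.2 to 104 M in maternal-strain worms. No read step was found in the sperm columns, so their depth is unknown. The 10 sperm markers (spe-9, spe-11, ssp-16, gsp-3 and others) all had a value in the 3 sperm libraries, with sums of 3834 RPKM in fog-2, 10728 RPKM in high-purity and 4521 RPKM in low-purity sperm. Of the same markers, 8 were at 0 in each RiboMinus embryo library and 2 or 3 in each poly(A) embryo library. The 6 intestine markers were also present in the sperm libraries, at a sum of 1779 RPKM in fog-2, 809 RPKM in high-purity and 2783 RPKM in low-purity sperm. Nothing in the sources used here says how reads that match several near-identical msp copies were assigned, so every value of a single member is uncertain to that extent.

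In sperm, msp mRNA was among the most abundant mRNA of the cell. The 30 genes summed to 45391 RPKM in fog-2 sperm, 114704 RPKM in high-purity CB4856 sperm and 38794 RPKM in low-purity CB4856 sperm. These sums were 5.78%, 10.7% and 4.95% of all RPKM in those libraries, in that order. All 30 genes had a value in each of the 3 libraries, as did nearly every feature: only 57 to 89 of 21035 had none in a sperm library, against 3098 to 11542 in the embryo and worm libraries. Of the 30, 24 stood among the 100 highest features of high-purity sperm, 21 in fog-2 sperm and 15 in low-purity sperm. The family median was 1450 RPKM in fog-2, 4126 RPKM in high-purity and 1368 RPKM in low-purity sperm, where the median of all features was 4.90, 3.11 and 3.96 RPKM.

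**Figure D1:**
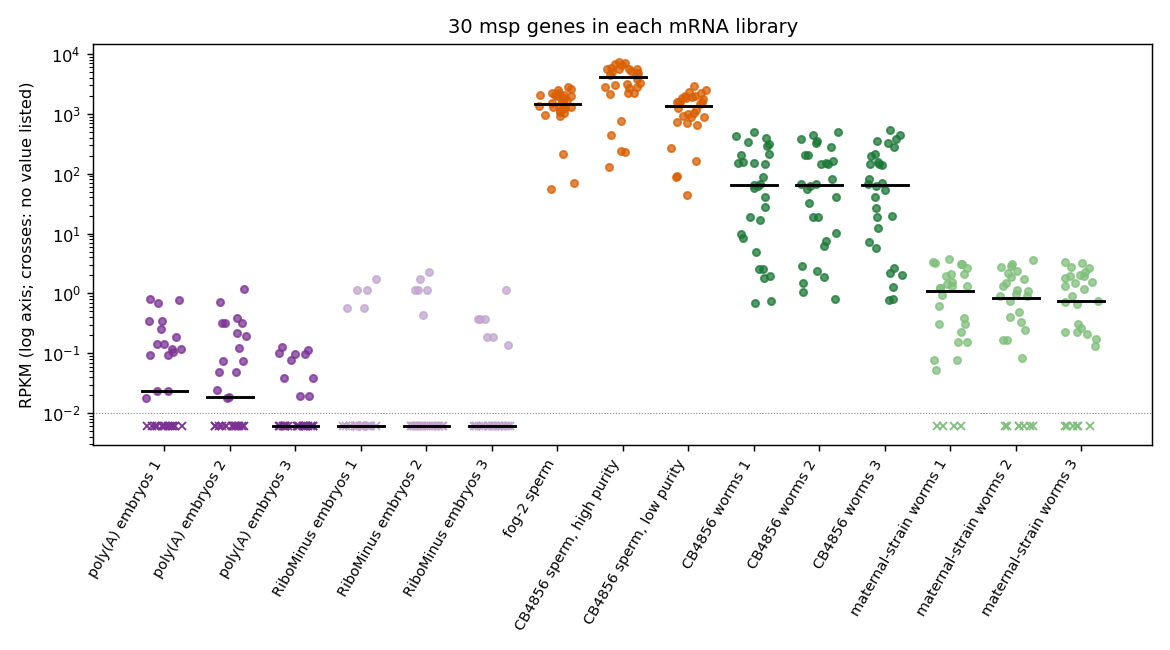
Level of the 30 msp genes in each of the 15 mRNA libraries, in RPKM on a log axis; each point is a gene, crosses are genes with no value and black lines are medians. The 3 sperm libraries have medians of 1368 RPKM or more, CB4856 worms near 64 RPKM, maternal-strain worms near 1 RPKM, and most genes have no value in RiboMinus embryos.

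Levels differed among the members within a sperm library by 51.0-fold in fog-2 and 56.1-fold in high-purity sperm. The highest member was msp-45 (F58A6.8), at 2083 RPKM in fog-2, 7283 RPKM in high-purity and 2895 RPKM in low-purity sperm. msp-57 followed in high-purity sperm, with 1655 RPKM in fog-2, 6971 RPKM in high-purity and 2187 RPKM in low-purity sperm. msp-53 was at 2836 RPKM in fog-2 sperm, the highest of any member there, and at 6913 RPKM in high-purity and 2454 RPKM in low-purity sperm. The order of these leading members thus changed between the fog-2 and the CB4856 libraries. msp-81 had 2602 RPKM in fog-2, 6455 RPKM in high-purity and 2288 RPKM in low-purity sperm. At the other end, msp-74 was at 68.6 RPKM in fog-2, 129.9 RPKM in high-purity and 44.01 RPKM in low-purity sperm. msp-64 (ZK1248.6) was the second lowest in high-purity sperm and yet well inside the range of the family in fog-2 sperm, as described below. Single libraries give no error for these levels.

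In sperm, levels also differed by chromosome. In the gene order of the RefSeq annotation of WBcel235, 13 of the 30 genes lie on chromosome II and 17 on chromosome IV. The 5 members lowest in high-purity sperm, msp-33, msp-63, msp-32, msp-64 and msp-74, are all on chromosome II. They were picked out after their values were seen. Of these, msp-63, msp-74 and msp-32 have lengths of 0.5, 0.61 and 1.49 times that of a usual msp gene, the length shared by 25 members. Members on chromosome IV spanned 2792 to 6971 RPKM in high-purity sperm with a median of 5085 RPKM, and those on chromosome II spanned 129.9 to 7283 RPKM with a median of 2204 RPKM. In CB4856 worms the medians were close, at 62.7 RPKM on IV and 66.4 RPKM on II. In maternal-strain worms they were 0.524 RPKM on IV and 1.51 RPKM on II. The 13 genes on chromosome II made up 49.1% of the family sum in CB4856 worms, 58.2% in the maternal strain, 31.3% in fog-2 sperm and 26.2% in high-purity sperm.

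Every member was higher in high-purity than in low-purity CB4856 sperm. All 30 differed by at least 2-fold, on the scale of RPKM + 1, where 9.39% of 14645 features were at least 2-fold higher and 14.2% at least 2-fold lower. The members moved almost as a block, with ratios of 2.51 to 3.29 and a median of 2.95, against a median of 0.907 over all features. The order of the 30 members was nearly identical in both libraries (Spearman's rho 0.99 across genes, which are not independent and share a strain). The summed sperm markers were 10728 RPKM in high-purity and 4521 RPKM in low-purity sperm, and the intestine markers 809 and 2783 RPKM. The sums of other lists did not fall as that of the intestine markers did. Muscle markers summed to 1434 RPKM in high-purity and 997 RPKM in low-purity sperm, and genes of male soma and seminal fluid to 246 and 126 RPKM. Oocyte and early embryo markers summed to 1856 and 1885 RPKM. The medians of these lists were nonetheless lower in high-purity than in low-purity sperm, as members of a list went both ways. They were 67.9 against 142.6 RPKM for muscle and 10.8 against 17.7 RPKM for male soma and seminal fluid. For oocyte and early embryo markers they were 250 against 354 RPKM. The part that purity or the pronase step plays in the msp difference was not tested.

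fog-2 sperm had less msp mRNA than high-purity CB4856 sperm for 28 of the 30 members. Of these, 24 were at least 2-fold lower, where 9.94% of 15146 features were, and the median ratio was 0.401, against 1.16 over all features. The lowest ratio was that of msp-55, at 939 RPKM in fog-2 and 4392 RPKM in high-purity sperm, which is 0.214 on the scale of RPKM + 1. msp-32 was at 55.6 RPKM in fog-2 and 239 RPKM in high-purity sperm, a ratio of 0.235. Against low-purity sperm the fog-2 library had a median ratio of 1.18 over the members, and 0 members were at least 2-fold lower, where 4.67% of 14961 features were. Strain, purity and library cannot be told apart among these 3 libraries.

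A pair of members went the other way. msp-64 was at 1349 RPKM in fog-2 sperm, against 228 RPKM in high-purity and 90.3 RPKM in low-purity CB4856 sperm. msp-33 (R05F9.8) was at 1397 RPKM in fog-2 sperm, against 765 RPKM in high-purity and 266 RPKM in low-purity CB4856 sperm. These 2 were the only members higher in fog-2 than in high-purity sperm, 5.90-fold for msp-64 and 1.83-fold for msp-33. msp-64 was the 1 member at least 2-fold higher, where 19.5% of 15146 features were. Against low-purity sperm both passed 2-fold, and msp-64 reached 14.8-fold, where 8.47% of 14961 features passed 2-fold.

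CB4856 worms held far more msp mRNA than maternal-strain worms. The family sum was 3771 ± 21.1 RPKM in CB4856 worms, against 32.9 ± 1.12 RPKM in maternal-strain worms (SD, n = 2 samples each). That was 0.521% of all RPKM in CB4856 worms, against 0.00458% in maternal-strain worms. In reads, the family had 52606, 52358 and 237856 in the 3 CB4856 worm libraries, against 492, 395 and 1752 in the 3 maternal-strain libraries. For all 30 members both CB4856 samples were above both maternal-strain samples, where this held for 47.1% of 18958 features with a value. The 10 sperm markers moved with them, at sums of 1072 to 1085 RPKM in CB4856 worms, against 7.22 to 7.84 RPKM in maternal-strain worms, where 1 of the 10 was at 0. The 5 genes of male soma and seminal fluid summed to 34.8 to 36.9 RPKM in CB4856 worms, against 21.6 to 25.2 RPKM in maternal-strain worms. Most of that sum was swm-1, whose main row averaged 26.4 ± 0.53 RPKM in CB4856 worms, against 23.6 ± 1.72 RPKM in maternal-strain worms (SD, n = 2 samples each). The 4 others were further apart: mab-3 averaged 5.44 RPKM in CB4856 worms, against 0.262 RPKM in maternal-strain worms, cwp-1 3.26 RPKM against no value, try-5 0.633 against 0.0170 RPKM, and her-1 0.320 against 0.0760 RPKM. The 7 oocyte and early embryo markers summed to 7992 to 8142 RPKM in CB4856 worms, against 10093 to 10258 RPKM in maternal-strain worms. The part of these marker differences in the msp values was not tested. Fewer germ cells making sperm and less msp mRNA per such cell cannot be told apart in whole worms.

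Of the 30 members, 27 were called higher in CB4856 worms by limma (adjusted p under 0.05 and a log2 difference of at least 1 on log2(RPKM + 1)), and none was called lower. Of 11394 features, 13.5% were called higher and 1.67% lower. Of the 28 members that passed the filter of 1 RPKM in 3 libraries, only 12 passed it without the CB4856 worms, so the remainder had to differ. Without the filter 27 of 30 members were called higher and 0 lower, where 8.21% and 1.01% of 19299 features were. After quantile normalization 24 members were called higher, while the calls over all features were 960 higher and 599 lower, against 1537 and 190 without it. Called log2 differences ran from 1.35 to 6.90, with adjusted p of at most 0.00744. Per gene, the ratio of mean RPKM was above 100 for 18 of the 27 members that had any value in maternal-strain worms, with a median of 119.7 and a highest value of 252 for msp-57.

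The largest log2 difference was that of msp-50 (C34F11.4), which had 503, 494 and 528 RPKM in CB4856 worms, against 3.69, 2.71 and 3.39 RPKM in maternal-strain worms. msp-142 (K05F1.2) had 429.9, 437 and 448 RPKM in CB4856 worms, against 3.07, 2.88 and 2.76 RPKM in maternal-strain worms. msp-81 had 335, 351 and 345 RPKM in CB4856 worms, against 2.07, 1.89 and 1.94 RPKM in maternal-strain worms. In each of these the groups were far apart and the libraries of a group close together. The log2 differences were 6.90 ± 0.15 for msp-50, 6.84 ± 0.31 for msp-142 and 6.87 ± 0.23 for msp-81 (SE, n = 2 samples each), with Benjamini-Hochberg adjusted p of 2.6e-07, 7.9e-06 and 1.6e-06 (limma). msp-45, the member highest in high-purity sperm, had 316, 325 and 326 RPKM in CB4856 worms, against 2.07, 2.22 and 2.05 RPKM in maternal-strain worms.

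Other members showed the same direction over a wide range of levels. msp-53 had 396, 378 and 382 RPKM in CB4856 worms, against 3.41, 3.64 and 3.21 RPKM in maternal-strain worms. msp-57 had 149, 146 and 144 RPKM in CB4856 worms, against 0.230, 0.739 and 0.671 RPKM in maternal-strain worms. msp-76 had 286, 274 and 282 RPKM in CB4856 worms, against 1.92, 0.986 and 1.92 RPKM in maternal-strain worms. In these 3 the groups were again far apart. msp-56 (K07F5.3) had 202, 208.5 and 194 RPKM in CB4856 worms, against 1.25, 1.10 and 1.48 RPKM in maternal-strain worms. msp-55 had 28.2, 32.7 and 26.8 RPKM in CB4856 worms, against 0.154, 0 and 0.211 RPKM in maternal-strain worms. msp-10 had 9.98, 10.1 and 12.4 RPKM in CB4856 worms, against 0, 0 and 0.134 RPKM in maternal-strain worms. In msp-55 and msp-10 the maternal-strain values rest on few reads. msp-74 had 4.92, 7.42 and 5.72 RPKM and msp-113 had 1.80, 1.88 and 2.22 RPKM in CB4856 worms, and neither had a value in maternal-strain worms. msp-113 was not called with a pseudocount of 5 or after quantile normalization, at log2 differences of 0.49 and 0.65.

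The smallest called difference was that of msp-64, with 8.48, 6.10 and 7.22 RPKM in CB4856 worms, against 3.07, 1.31 and 2.30 RPKM in maternal-strain worms. Its groups did not overlap, but the log2 difference was only 1.35 ± 0.24 (SE, n = 2 samples each; limma, adjusted p = 0.00744). The call was lost without replicate 3 or without replicates 1 and 2 of CB4856 worms and without replicates 1 and 2 of maternal-strain worms, with adjusted p of 0.060, 0.061 and 0.054, and also with median centring (0.061) and a pseudocount of 0.1 (0.36) or 5 (log2 difference 0.76). msp-33 had 18.9, 18.5 and 19.2 RPKM in CB4856 worms, against 3.23, 3.04 and 2.65 RPKM in maternal-strain worms, a log2 difference of 2.36 ± 0.21 (limma, adjusted p = 0.000296) that was not called with a pseudocount of 0.1 (0.086). Both members were among the highest of the family in maternal-strain worms and among the lower ones in CB4856 worms. They are also the members that were higher in fog-2 than in high-purity sperm.

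**Figure D2:**
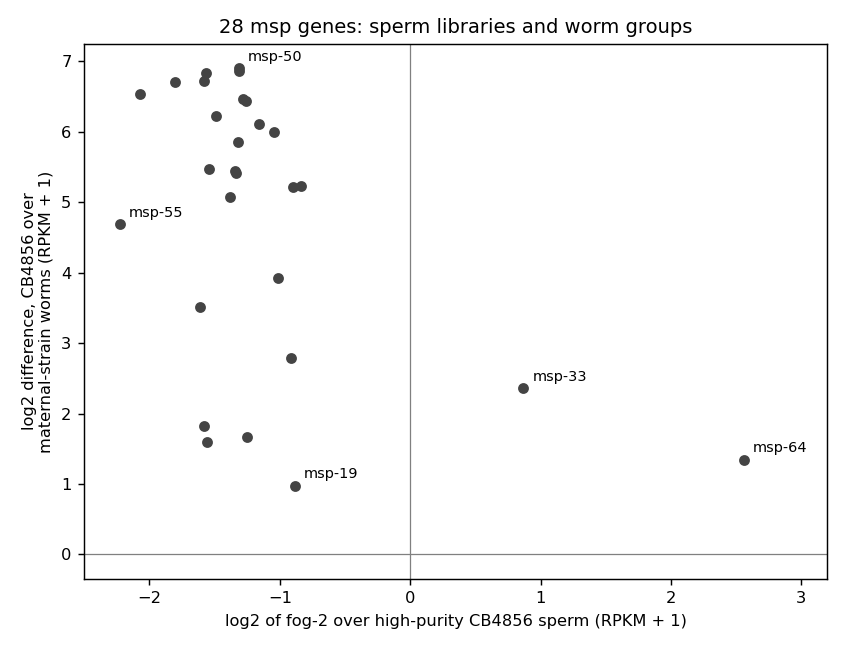
The log2 difference of CB4856 over maternal-strain worms (vertical axis) against the log2 ratio of fog-2 over high-purity CB4856 sperm (horizontal axis), both on RPKM + 1, for the 28 msp genes that passed the filter; each point is a gene. msp-33 and msp-64 stand alone right of 0, at 0.87 and 2.56, with worm differences of 2.36 and 1.35.

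The members not called were low in both strains of worm. msp-19 had 1.95, 1.51 and 1.30 RPKM in CB4856 worms, against 0.307, 0.246 and 0.269 RPKM in maternal-strain worms, and its log2 difference of 0.98 fell just under the threshold (limma, adjusted p = 0.0155). msp-31 had 0.750, 1.05 and 0.784 RPKM in CB4856 worms and no value in any maternal-strain library. msp-32 had 0.704, 0.808 and 0.816 RPKM in CB4856 worms, against 0.0515 RPKM in replicate 1 and no value in replicates 2 and 3 of the maternal-strain worms. Neither msp-31 nor msp-32 passed the filter. In all 3 genes each CB4856 library was above each maternal-strain library.

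Members that were alike in sperm differed widely in worms. In CB4856 worms the family ran from 0.786 RPKM for msp-32 to 513 RPKM for msp-50, and the 5 highest members made up 53.2% of the family sum, against 29.2% in high-purity sperm. The worm level was 0.0383% of the high-purity sperm level for msp-31 and 16.3% for msp-142, a span of 425-fold, with a median of 2.75%. It was under 1% for 8 of the 30 members (26.7%), and for 11.8% of the 1479 other genes with at least 100 RPKM in high-purity sperm. Those other genes were chosen by sperm level alone and may be high in other tissues of the worm. A low worm level was not particular to msp genes. Both rows of msd-1, another gene with an MSP domain, had 1.56 and 1.57 RPKM in CB4856 worms, against 2078 and 2125 RPKM in high-purity sperm. The related msd-2 and msd-4 were not as low, with msd-4 at 492 RPKM against 4832 RPKM. The 6 members under 3 RPKM in CB4856 worms were at 239 to 4737 RPKM in high-purity sperm. Across the 30 members, the levels in CB4856 worms and high-purity sperm had a Spearman's rho of 0.53, and those of CB4856 and maternal-strain worms of 0.81. The points are not independent, since near-identical copies may share reads. Whether such reads were assigned alike in sperm and worm libraries is unknown, as the sperm columns showed no read step and few features without a value.

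**Figure D3:**
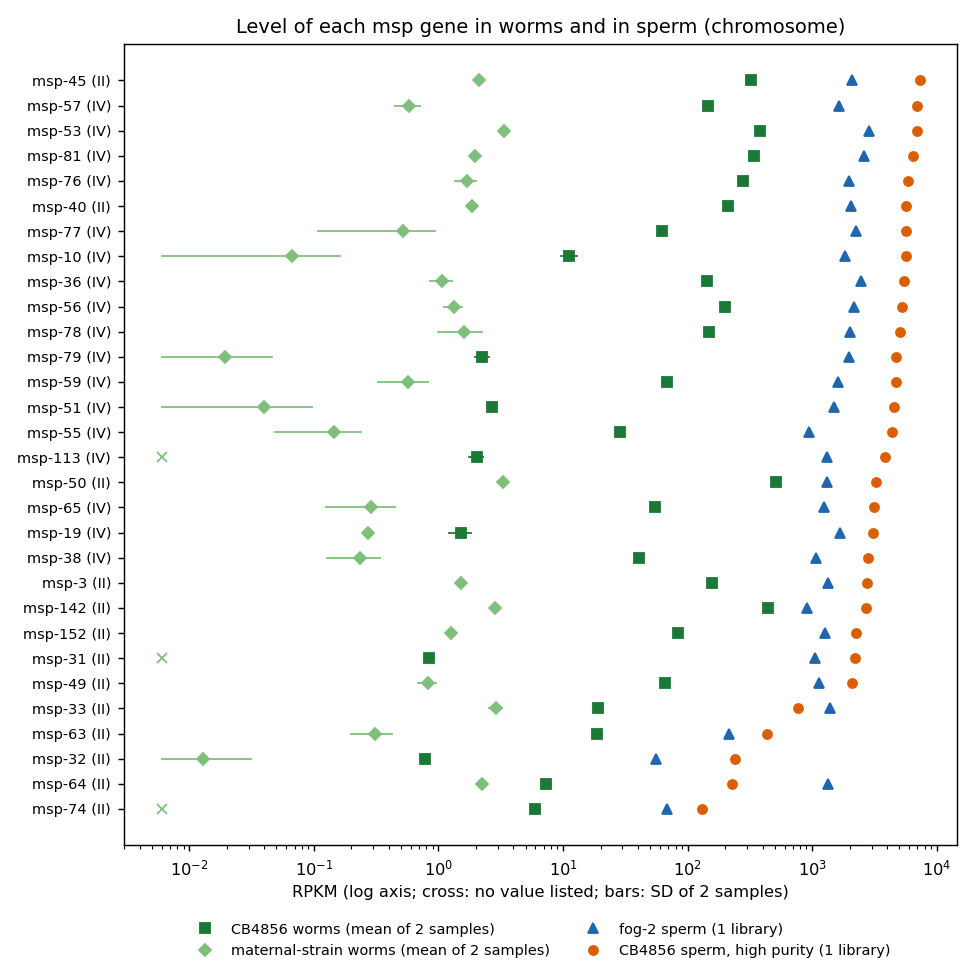
Level of each msp gene in CB4856 worms, maternal-strain worms, fog-2 sperm and high-purity CB4856 sperm, in RPKM on a log axis, ordered by high-purity sperm with the chromosome in brackets; bars are SDs of 2 samples and crosses mark no value. msp-31, msp-113, msp-51 and msp-79 have 0.843 to 2.70 RPKM in CB4856 worms, against 2204 to 4737 RPKM in high-purity sperm.

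Direct neighbours also differed in worms. Of the 28 pairs of successive members on a chromosome, 6 have no other protein-coding gene between them. msp-152 and its neighbour msp-31 were at 84.1 and 0.843 RPKM in CB4856 worms, a ratio of 99.7, and at a ratio of 1.02 in high-purity sperm. msp-78 and msp-79 were at 148 and 2.25 RPKM in CB4856 worms, a ratio of 65.7, and at a ratio of 1.07 in high-purity sperm. msp-81 and msp-10 were at 344 and 11.2 RPKM in CB4856 worms, a ratio of 30.7, and at a ratio of 1.14 in high-purity sperm. Over the 6 pairs the ratio ran from 2.64 to 99.7 in CB4856 worms, and from 0.992 to 6.24 in high-purity sperm. In fog-2 sperm 5 of the 6 ratios lay between 1.02 and 4.25, but msp-33 was 25.1 times msp-32, as far apart as in CB4856 worms, where the ratio was 24.1. These pairs were examined after the member values had been seen. The part of shared reads in these ratios, or of any difference in how sperm and worm values were made, was not tested.

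Of the genes that act with the major sperm proteins, most of those that work in sperm were called higher in CB4856 worms, where 13.5% of 11394 features were, and none of those that act in the response of the oocyte was. Both genes of the PP1 phosphatases that act on MSP filaments in the pseudopod, gsp-3 and gsp-4, which are also among the 10 sperm markers, were called higher in CB4856 worms, with log2 differences of 6.44 and 5.99. Of 6 genes of the fibrous bodies and membranous organelles in the table, 5 were called higher, among them spe-18 at 5.08 and the casein kinase gene spe-6 at 2.30, and the trafficking gene spe-39 was not called, at -0.17. Of 5 rows for 4 other genes with an MSP domain, 4 were called higher, namely msd-4 at 6.65, msd-2 at 5.39 and both rows of msd-1, at 1.35 and 1.34. The fifth, vpr-1, a VAP homologue expressed beyond sperm, was not called, at -0.16. Of 6 regulators of the sperm programme, the Argonaute genes alg-4 and alg-3 were called higher at 4.82 and 4.57, as were fog-3 at 2.25 and elt-1 at 1.04, while spe-44 was at 0.46 and fog-1 at 0.59 without a call. Of 13 genes for the response of the oocyte and sheath to MSP, such as the receptor gene vab-1 and the gap junction genes inx-14 and inx-22, none was called by limma in this comparison. The median log2 difference of the 13 was -0.04, against 0.04 over all features. An unadjusted p under 0.05 was found for 4. Of these, gsa-1 fell just under the threshold, at 0.96 (limma, adjusted p = 0.0015). The others were ceh-18 at 0.29 (0.024), kin-1 at 0.45 (0.094) and oma-1 at -0.69 (0.12).

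In 1-cell embryos the msp mRNAs were at the edge of detection. The poly(A) embryo libraries held 185, 167 and 42 msp reads, which is 2.19 (95% interval 1.89 to 2.53), 2.08 (1.77 to 2.42) and 0.402 (0.290 to 0.543) per M recovered reads. The RiboMinus embryo libraries held 10, 14 and 15 msp reads, which is 3.22 (1.55 to 5.93), 4.54 (2.48 to 7.62) and 1.47 (0.822 to 2.42) per M reads. These are exact Poisson intervals that cover counting error only and treat reads as independent. Replicate 3 was lower than replicates 1 and 2 in poly(A) embryos by more than this counting error. Between 10 and 17 of the 30 members had a read in a poly(A) embryo library, and 5 to 7 in a RiboMinus library. A single read was worth 0.0191 to 0.0245 RPKM in poly(A) embryos and 0.188 to 0.571 RPKM in RiboMinus embryos for the 25 members of usual length.

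The members with most signal in poly(A) embryos were msp-76 and msp-45. msp-76 had 0.770, 1.18 and 0.0383 RPKM in poly(A) embryos, from 33, 48 and 2 reads, against no value in any RiboMinus library and 1.92, 0.986 and 1.92 RPKM in maternal-strain worms. msp-45 had 0.793, 0.711 and 0.0191 RPKM in poly(A) embryos, against 0.569, 2.29 and 1.13 RPKM in RiboMinus embryos and 2.07, 2.22 and 2.05 RPKM in maternal-strain worms. For both, replicate 3 of poly(A) embryos rests on 2 reads or fewer. msp-10 and msp-113, the first by name among the members at the bottom, had no read in any of the 6 embryo libraries, whereas they had 1845 and 1311 RPKM in fog-2 sperm. The others with no embryo read were msp-31, msp-32, msp-51, msp-55, msp-63, msp-74 and msp-77. msp-19 had a value in 1 embryo library, replicate 2 of RiboMinus embryos, at 1.14 RPKM.

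Poly(A) embryos had less msp mRNA than maternal-strain worms for part of the family. Of the 30 members, 12 were called lower by limma, where 24.5% of 11394 features were, and none was called higher, where 30.5% were. For 23 of the 30 both embryo samples were below both maternal-strain worm samples, where 40.1% of 18218 features were, and for 0 above, where 34.1% were. This comparison shares its maternal-strain worms with that of the worm strains. Without the filter 12 of 30 were called lower, where 14.3% of 19299 features were, and 0 higher, where 17.5% were. The largest differences were those of msp-53 (log2 difference -2.03 ± 0.33, adjusted p = 0.0022), msp-50 (-2.01 ± 0.15, 6.0e-05) and msp-33 (-1.93 ± 0.21, 0.000385; SE, n = 2 samples each, limma). msp-45 was also called, at -1.21, and lost the call without replicate 3 of poly(A) embryos, at -0.82. msp-53 had 0.0175, 0.0184 and 0.129 RPKM in poly(A) embryos, against 3.41, 3.64 and 3.21 RPKM in maternal-strain worms. msp-142 had 0.257 and 0.319 RPKM in replicates 1 and 2 of poly(A) embryos and no value in replicate 3, with a log2 difference of -1.77. At these levels the pseudocount sets the size of a difference: 0 members were called with a pseudocount of 5 and 19 with one of 0.1, and 3 were called after quantile normalization. The 10 sperm markers summed to 1.22 to 2.01 RPKM in poly(A) embryos, against 7.22 to 7.84 RPKM in maternal-strain worms.

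The spread between the 2 samples was larger in embryos (median SD of 0.25 on the log2 scale in poly(A) and 0.22 in RiboMinus embryos) than in CB4856 worms (0.037) and maternal-strain worms (0.034). The fit shares 1 estimate of spread between the 4 groups, so p-values for embryos rest in part on the smaller spread of the worms. With only poly(A) embryos and maternal-strain worms in the fit, 12 members were again called lower. That fit still shares the smaller spread of the worms, so it cannot show what the embryo spread alone would give.

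Among the genes that act with MSP, 3 of the 13 response genes were called higher in poly(A) embryos than in maternal-strain worms, where 30.5% of 11394 features were, and 7 lower, where 24.5% were. inx-14 and inx-22, innexins of the germ line, were higher at 2.67 and 1.70, as was oma-2, a regulator of oocyte maturation, at 1.52, while kin-2, a regulatory subunit of protein kinase A, and unc-43, a CaM kinase, were lower at -2.21 and -1.93. The receptor gene vab-1 was not called. Of the genes that act in sperm, msd-4 was called lower at -1.77, spe-6 and fog-1 higher at 1.68 and 1.99, and neither gsp-3 nor gsp-4 was called.

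Between the 2 kinds of embryo library no member was called. Of the 28 members tested in poly(A) against RiboMinus embryos, 0 were called by limma, where 11.9% of 11394 features were called higher and 8.37% lower, and 1 had an unadjusted p under 0.05. Without the filter 0 of 30 were called, where 5.73% of 19299 features were called higher and 4.03% lower. Both poly(A) samples were above both RiboMinus samples for 3 members, where 34.4% of 16309 features were, and below them for 2, where 15.7% were. Quantile normalization changed the calls over all features to 1007 higher and 1096 lower, against 1361 and 954 without it. The member with the unadjusted p under 0.05 was msp-45, with a log2 difference of -0.77 ± 0.27 (SE, n = 2 samples each; limma, adjusted p = 0.082), and without replicates 1 and 2 of poly(A) embryos it was called lower, at -1.16 (0.0055). Among the other genes, elt-1 was called lower in poly(A) than in RiboMinus embryos at -1.22, as were unc-43 and vab-1 at -1.36 and -1.30. Only 5 to 7 members had a read in a RiboMinus library, and the size of difference that could be detected at that depth was not tested. When only these embryos were fitted, no feature of the whole table was called, so the calls over all features were made only with the worm groups in the fit.

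Set against sperm, embryo msp mRNA was a minute fraction. For the 28 members with at least 100 RPKM in both fog-2 and high-purity sperm, the poly(A) embryo level was 0.0132 per 1000 of the high-purity sperm level at the median, and 9 of the 28 were at 0. Summed over these members it was 0.0214 per 1000, and 0.0365 per 1000 without replicate 3 of poly(A) embryos or 0.00635 without replicates 1 and 2. With RiboMinus embryos the median was 0.00664 per 1000, and 14 of the 28 were at 0, but the summed ratio was higher, at 0.0405 per 1000. The highest against high-purity sperm was msp-64, at 1.37 per 1000, with 0.700, 0.319 and 0.115 RPKM in poly(A) embryos and 228 RPKM in high-purity sperm. Against fog-2 sperm msp-64 was at 0.231 per 1000, and msp-76 was the highest, at 0.257. The 1080 other genes with at least 100 RPKM in both sperm libraries had a median of 4.33 per 1000. The 526 of them under 10 RPKM in maternal-strain worms had a median of 0.0378 per 1000, with quartiles of 0 and 0.297, and 180 (34.2%) were at 0. The ratio compares shares of 2 RNA pools and is not a count of molecules brought in by a sperm.

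**Figure D4:**
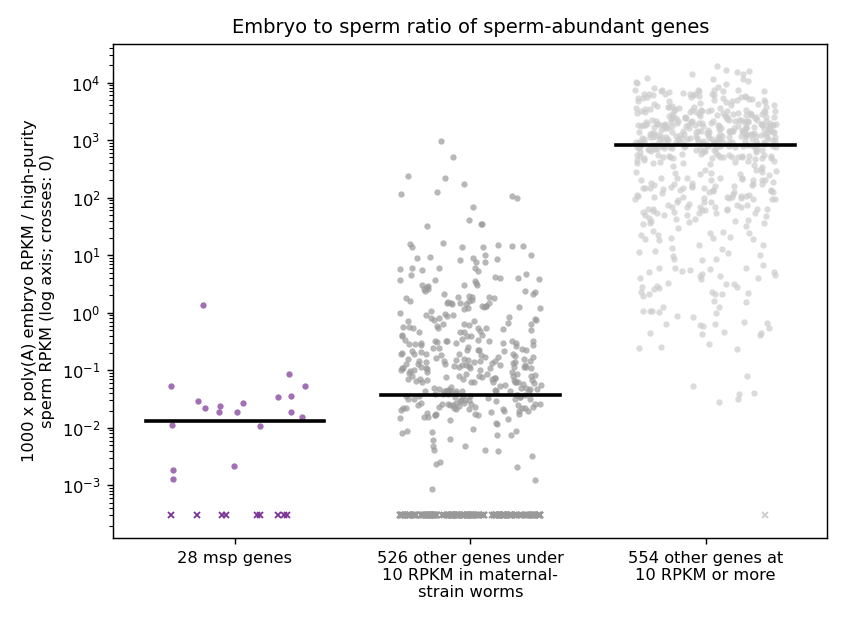
Poly(A) embryo RPKM per 1000 RPKM of high-purity sperm on a log axis, for the msp genes and the other genes with at least 100 RPKM in both fog-2 and high-purity sperm; points are genes, crosses are genes at 0 and lines are medians. The 28 msp genes have a median of 0.0132 and the 526 other genes low in maternal-strain worms one of 0.0378.

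Small RNAs on msp exons were a small share of the reads in every library. In fog-2 sperm 390 sense and 98 antisense reads fell on the 30 genes, which is 40.9 (95% exact Poisson interval 36.9 to 45.1) and 10.3 (8.33 to 12.5) per M of the 9.55 M reads in all class tables. N2 oocytes had 3.5 sense and 5 antisense reads, or 0.432 (0.104 to 1.17) and 0.617 (0.200 to 1.44) per M of 8.10 M reads. Hybrid embryos had 4 sense and 1 antisense reads of 5.38 M, and TX189(OMA-1::GFP) embryos 3 and 9 of 15.3 M. Some of these values are not whole numbers, so a read could count in part at a locus. CB4856 worms had 41.5 sense and 42.5 antisense reads of 2.23 M, against 19.5 and 8.5 of 2.50 M in maternal-strain worms. The title of that last small RNA library says N2, whereas its strain entry is that of the mothers, so its genotype is uncertain. Scaled per M reads these are 18.6 sense (13.4 to 25.2) and 19.04 antisense (13.8 to 25.7) in CB4856 worms, and 7.81 sense (4.74 to 12.1) and 3.40 antisense (1.51 to 6.58) in maternal-strain worms. The intervals cover counting error only, and each condition had 1 library.

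The sperm reads sat on a handful of members. Sense reads in fog-2 sperm were 144 on msp-64, 85 on msp-142, 55 on msp-76 and 45.5 on msp-33, with 14 on msp-57, and between 0 and 8 on the 25 others. Antisense reads in fog-2 sperm were 68 on msp-56, with 8 on msp-142, 7 on msp-81 and 5 on msp-64, and 19 members had none. The members with most sense reads were not those with most mRNA: msp-53, highest in fog-2 sperm mRNA at 2836 RPKM, had 1 sense read, while msp-64 had 1349 RPKM. Only msp-64, msp-142 and msp-76 for sense reads and msp-56 for antisense reads reached 50 reads in fog-2 sperm or N2 oocytes, and they did so through sperm alone, so nothing is read from their direction. All were at least 8-fold higher in sperm, where 42% of 1325 loci were for sense and 12.5% of 8532 for antisense reads. msp-64 had 15.1 sense reads per M (12.7 to 17.8) in fog-2 sperm, against 0.123, from 1 read, in oocytes (upper bound 0.688). The other 3 had no oocyte read on that strand. With oocyte reads set to a floor of 3, the sperm to oocyte ratio was 24.0 for sense reads on msp-142 and 15.6 on msp-76. For antisense reads on msp-56 it was 19.2. These ratios leave out counting error, and the members were picked by their sperm reads.

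Antisense small RNAs were scarcer on msp genes than on other abundant sperm mRNAs. In fog-2 sperm the median was 0 antisense reads over the 30 members, against 95 over 1079 other genes with at least 100 RPKM in both sperm libraries. Of the members 63.3% had none, against 12.98% of the others, and 1 member had at least 10, against 77.5% of the others. Over all 21222 loci the fog-2 sperm median was 4 antisense reads and 1 sense read. No sense read fell on 23.3% of the members, against 43.7% of all loci, and 16.7% against 18.9% had at least 10. Sense reads thus had a median of 2 on the members, not below that of all loci, and 31 on the other abundant sperm genes. The msp genes are short, and the others had a median length 2.50 times that of a usual msp gene; scaled to that msp length, their medians were 34.1 antisense and 10.7 sense reads. Endogenous siRNAs of worms are mostly antisense to mRNA and in sperm are tied to the Argonautes ALG-3 and ALG-4. How small RNA reads that match several msp copies were counted, beyond these fractions, is not given in the sources used here, and its part in these low counts was not tested.

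**Figure D5:**
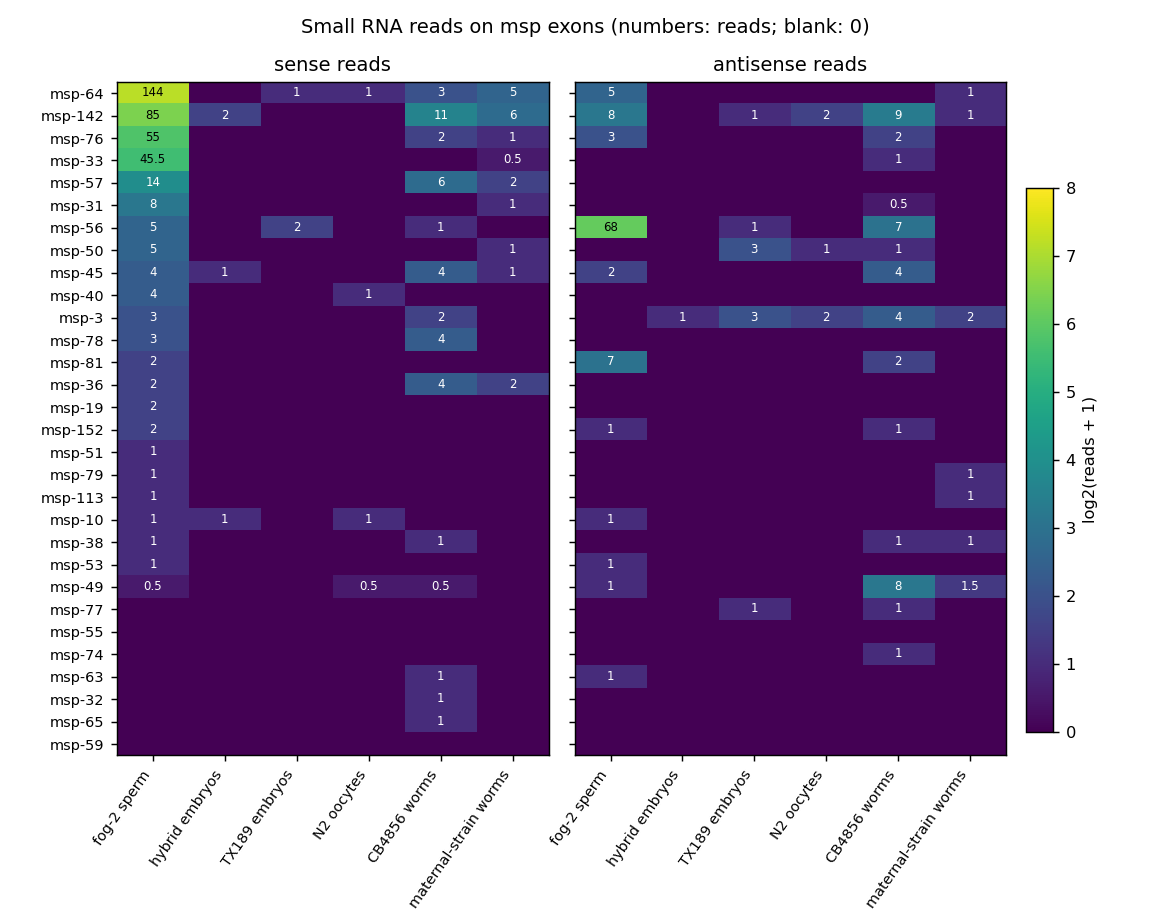
Sense (left) and antisense (right) small RNA reads on the exons of each msp gene in the 6 small RNA libraries; the colour is log2(reads + 1), numbers are reads and blank cells are 0. Sperm sense reads are highest on msp-64 with 144 and msp-142 with 85, and sperm antisense reads on msp-56 with 68.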

How the data were processed

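BWA is the tool named, per the submitters' processing notes, with no role given; its version, the genome build and annotation are not given in the sources used here. The authors deposited mRNA levels as RPKM, and small RNA class tables whose signal is reads multiplied by 1 constant per library, as the values show; that constant was divided out. Each of these class tables has another 8 columns whose names fit none of the samples; these stayed out. Oocyte and worm columns were matched by elimination. Duplicate identifiers were dropped (21042 rows, 21035 features). Whole reads were recovered from RPKM steps for 98.8% of 17879 features with at least 3 values, to a tolerance of 0.0001 reads, including all 30 members.

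The test was the moderated linear model of limma 3.58.1, run in R 4.3.3 with trend on log2(RPKM + 1), for 11394 features of at least 1 RPKM in at least 3 of 12 libraries, with 4 groups of 2 samples in 1 model. P-values are two-sided with Benjamini-Hochberg adjustment over all features; fold changes on this scale understate those of low genes. Replicates 1 and 2 were to be averaged where they differed by no more than read sampling. Their variance was 1.90 to 2.02 times that of independent reads, so this was not met strictly; they were averaged because the factor did not grow with read count, and 3 samples a group were run as an alternative. Nothing says that samples were separate cultures, so p-values may measure technical spread only. Sperm pairs used features of at least 1 RPKM in either library. Sperm and small RNA libraries are single and had no test; small RNA loci were compared at 8-fold with at least 50 reads and a floor of 3 reads per library. Tables used Python 3.11.15. The fit was tested on simulated data whose noise was drawn from the spread of these same samples. No conclusion is drawn from that test. Alternatives were other pseudocounts, filters and scalings, a replicate block, 3 replicates as 3 samples, only the groups compared, and leaving out libraries; for ratios and small RNAs, other libraries, thresholds and read totals.

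Members and gene lists were chosen with earlier results of these data known. Named with full values were the members highest and lowest in high-purity sperm, in poly(A) embryos, in the fog-2 to high-purity ratio and in sperm small RNA reads, and those not called between worm strains. Of the context genes, msd-3, spe-5 and spe-7 were not analysed here, and the values of 1 other are not reported here.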

Additional observations from a re-analysis of the deposited data

Results flagged for a closer look

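msp-64 and msp-33 had opposite directions between strains in worms and in sperm. Each was higher in every CB4856 worm library than in any maternal-strain worm library, and lower in both CB4856 sperm libraries than in fog-2 sperm. The log2 ratio of fog-2 over high-purity sperm was 2.56 for msp-64 and 0.87 for msp-33. The other 28 members were lower in fog-2 than in high-purity sperm. The difference between the contrasts was not tested, since each kind of sperm has 1 library, and the maternal-strain worms and fog-2 males are different strains.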

How the results depend on the processing

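The count of members called higher in CB4856 worms was 27 and ran from 23 (pseudocount of 5, or a filter of 5 RPKM) to 28 (3 replicates as 3 samples), with 26 to 27 when libraries were left out. The count called lower in poly(A) embryos than in maternal-strain worms, 12, was 19 with a pseudocount of 0.1, 0 with one of 5, 3 with quantile normalization and 9 with median centring, with 11 to 13 when libraries were left out. In poly(A) against RiboMinus embryos, where 0 were called, a pseudocount of 0.1 gave 1 higher and 1 lower, and leaving out libraries gave 0 to 1 lower, the 1 being msp-45 without replicates 1 and 2 of poly(A) embryos. With a replicate block the counts were 27, 12 and 0; samples with the same number deviated together in worms (correlation 0.71 over features), but the labels name no shared batch, so the numbers were not taken as pairs. The median embryo to sperm ratio, 0.0132 per 1000, was 0.0233 against fog-2 sperm, 0.00664 with RiboMinus embryos, and 0 to 0.0162 when poly(A) embryo libraries were left out, an alternative chosen after seeing the data. Quantile normalization moved the median of all features between worm strains by more than 0.1, to -0.19 against 0.04, and median centring moved it to -0.20; the share of calls that were higher was 61.6% and 81.5%, against 89.0% without either. The calls at 2-fold in sperm and at 8-fold in small RNAs stayed within 1.5 times their counts. No called member changed direction under these settings. Embryo values are limited by 42 to 185 msp reads a poly(A) library and 10 to 15 a RiboMinus library.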
